A study of Mus musculus with 24 samples.

Results

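The 10 genes described here are Xbp1, of the endoplasmic reticulum (ER) stress response, and 9 genes of the integrated stress response, the programme that the transcription factor ATF4 runs when cells are short of amino acids or load their ER with unfolded protein. They were Atf4, Ddit3, Xbp1, Ppp1r15a, Trib3, Sesn2, Chac1, Asns, Psat1 and Phgdh, named by symbol, and each was represented by its RefSeq messenger entry with the highest mean level over the 24 libraries. All 10 were found in the table, which holds 168326 transcript entries under 52089 symbols, and 9 of the 10 had enough reads to be tested. The data came from brite adipocytes, cells of white fat that can burn fuel for heat as brown fat does, in which the long noncoding RNA Ctcflos (listed as 1300015D01Rik) had been knocked down.

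In the integrated stress response, any of several kinases phosphorylates the initiation factor eIF2α, which slows translation in general and favours translation of Atf4 mRNA. ATF4 then switches on genes for amino acid synthesis and uptake, for the proapoptotic factor CHOP (Ddit3) and for feedback regulators such as the eIF2α phosphatase subunit GADD34 (Ppp1r15a). Xbp1 belongs to a neighbouring arm of the ER stress response, in which the enzyme IRE1 splices its mRNA into the form that encodes an active factor. ATF4 activity is set largely at translation and XBP1 activity by splicing, and the mRNA levels reported here measure neither step.

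The cells were primary preadipocytes from the stromal-vascular fraction of inguinal white fat of 129SvEv mice, as the labels name the strain, which the study's methods give as 129S6sv/ev and describe as young males. After 2 days of induction and 1 day of differentiation, with rosiglitazone present, all groups were reverse transfected with an antisense gapmer at 50 nM, a short DNA strand with modified ends that makes RNase H cut the RNA it pairs with. The KD groups received a gapmer against Ctcflos and the NC groups a nontargeting one, and cells were harvested after 24 h or 72 h, with 6 libraries in each of the 4 groups. The study's methods name more than 1 gapmer against Ctcflos, and the labels do not say which one a library received. The study states that its global transcriptome work concentrated on transcript 1 of Ctcflos, and its heat maps at 24 h and 72 h compare a knockdown of that transcript with control. Its experimental setup also lists a gapmer against other transcripts.

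Levels are given as scaled RPKM, the deposited reads per kilobase of transcript, relative to all mapped reads, after 1 further scaling factor per sample. The steps between low values put the depth of the libraries at 1391832 to 5423840 mapped reads (median 3945867). NC 72 h has n = 5 and the other groups n = 6, because replicates 2 and 3 of NC 72 h differed by less than the sampling noise and their mean was used as 1 sample. In their deviations from the group means the libraries fell into a cluster of 16 and one of 8, and the smaller cluster held replicates 3 and 4 of KD 24 h, 5 and 6 of NC 24 h, 5 and 6 of KD 72 h, and 4 and 5 of NC 72 h. Neither the labels nor the table name a batch that matches these clusters, so results are also given within each. The clusters were made from the same expression values, so the spread within a cluster can come out too small. Adjusted p-values within a cluster are therefore descriptive. Ctcflos itself, by its RefSeq entry NR_040321, averaged 0.189 ± 0.244 RPKM in KD against 0.741 ± 0.515 in NC at 24 h, and 0.231 ± 0.220 against 1.23 ± 0.408 at 72 h (SD, n = 6, 6, 6 and 5), and its samples overlapped at 24 h. Of its 6 entries AK041254 and an Ensembl entry, both of which the study names as transcript 1, differed less at 24 h. They stood at 0.255 ± 0.401 against 0.430 ± 0.248 and 0.239 ± 0.375 against 0.402 ± 0.232, both with overlap. In deposited RPKM, the summed level of 6 adipocyte markers was 28206 to 54541 per sample. That of 3 endothelial markers was at most 1.32 and that of 4 macrophage and blood markers 2.74 to 27.9.

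Because ATF4 binds amino acid response elements in the promoters of its targets, the promoter windows of the members were searched for the letters TGATGNAA on either strand. The windows are those of RefSeq (GRCm38.p6, 250 bases before to 50 after the annotated start), and all 10 members had at least 1. The letters were present in 3 of the 10 members, Asns, Chac1 and Trib3, and in 3.97% of all 32851 windows. The cAMP response element TGACGTCA, which reads the same on both strands and which factors of the ATF and CREB family bind, was present in Ppp1r15a alone among the members and in 1.79% of all windows. The ER stress response element was found in 0 of the 10 members and in 0.119% of all windows. The 4 windows with a match are printed 5′ to 3′ along the gene, with the matching letters in capitals, because they set the canonical amino acid targets beside the member with the largest fold change at 72 h. None of the matches overlaps another.
Asns, chr6:7693160-7693459, minus strand: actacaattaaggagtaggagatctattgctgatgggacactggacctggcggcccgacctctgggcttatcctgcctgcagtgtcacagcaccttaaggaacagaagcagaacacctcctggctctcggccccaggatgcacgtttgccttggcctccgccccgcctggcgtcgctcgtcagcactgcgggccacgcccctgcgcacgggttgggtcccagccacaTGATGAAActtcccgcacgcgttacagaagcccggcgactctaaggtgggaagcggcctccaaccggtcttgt
Chac1, chr2:119350992-119351291, plus strand: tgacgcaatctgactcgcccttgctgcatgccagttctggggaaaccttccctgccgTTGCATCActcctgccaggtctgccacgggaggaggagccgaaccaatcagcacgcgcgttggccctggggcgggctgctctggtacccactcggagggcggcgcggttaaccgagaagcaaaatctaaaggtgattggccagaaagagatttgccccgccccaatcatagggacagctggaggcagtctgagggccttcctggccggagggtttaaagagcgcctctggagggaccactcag
Trib3, chr2:152344011-152344310, minus strand: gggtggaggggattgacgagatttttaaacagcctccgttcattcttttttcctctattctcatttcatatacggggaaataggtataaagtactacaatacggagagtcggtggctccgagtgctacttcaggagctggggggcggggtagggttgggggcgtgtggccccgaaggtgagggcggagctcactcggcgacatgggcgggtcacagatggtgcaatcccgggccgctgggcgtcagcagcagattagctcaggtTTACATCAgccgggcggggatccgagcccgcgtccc
Ppp1r15a, chr7:45526219-45526518, minus strand: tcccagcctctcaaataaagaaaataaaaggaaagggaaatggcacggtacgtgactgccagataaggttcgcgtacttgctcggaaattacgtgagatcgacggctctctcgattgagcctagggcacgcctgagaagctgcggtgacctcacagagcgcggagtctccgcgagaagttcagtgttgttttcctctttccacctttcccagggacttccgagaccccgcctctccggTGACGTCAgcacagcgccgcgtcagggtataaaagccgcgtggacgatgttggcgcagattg
The match lies 23 to 16 bases before the start of Asns, 193 to 186 before that of Chac1 and 12 to 5 before that of Ppp1r15a, and at bases 15 to 22 after the start of Trib3. In Asns the letters lie on the strand of the gene and in Chac1 and Trib3 on the opposite strand. A match describes letters only and does not show that a factor binds.

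At 24 h the transcript of ATF4 itself, Sesn2 and Ppp1r15a were higher after knockdown and Xbp1 was lower, whereas the amino acid enzymes, Trib3, Chac1 and Ddit3 did not pass the test. Of the 9 members tested 4 were called (limma, Benjamini-Hochberg adjusted p under 0.05 over all 52005 entries tested), 3 higher and 1 lower. Of all entries tested 22.6% were called, 10.5% higher and 12.1% lower, and the median log2 fold change was -0.03 over the members and -0.02 over all entries. The members' count was not tested against that share. The KD and NC samples did not overlap for 1 of the 9 members, against 11.7% of genes with 1 entry per symbol. As these are bulk samples, fewer cells of a type and less RNA per cell cannot be told apart.

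At 72 h Atf4 was no longer called, Ddit3 and Ppp1r15a were higher after knockdown and Xbp1 was again lower. Of the 9 members 3 were called, 2 higher and 1 lower, where 22.5% of 54138 entries were called, 10.2% higher and 12.3% lower. The median log2 fold change was 0.24 over the members and 0.00 over all entries. The KD and NC samples did not overlap for 3 of the 9 members, against 14.7% of genes with 1 entry per symbol. On the deposited RPKM without scaling the median of all entries at 72 h shifted to 0.25, and 4 members were called, all higher. Of all 54138 entries 16255 were called on that scale, 13151 of them higher. The share of higher calls among all called entries also depends on the scaling, at 45.3% with it and 80.9% without it at 72 h, and 46.4% and 54.0% at 24 h.

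**Figure D1:**
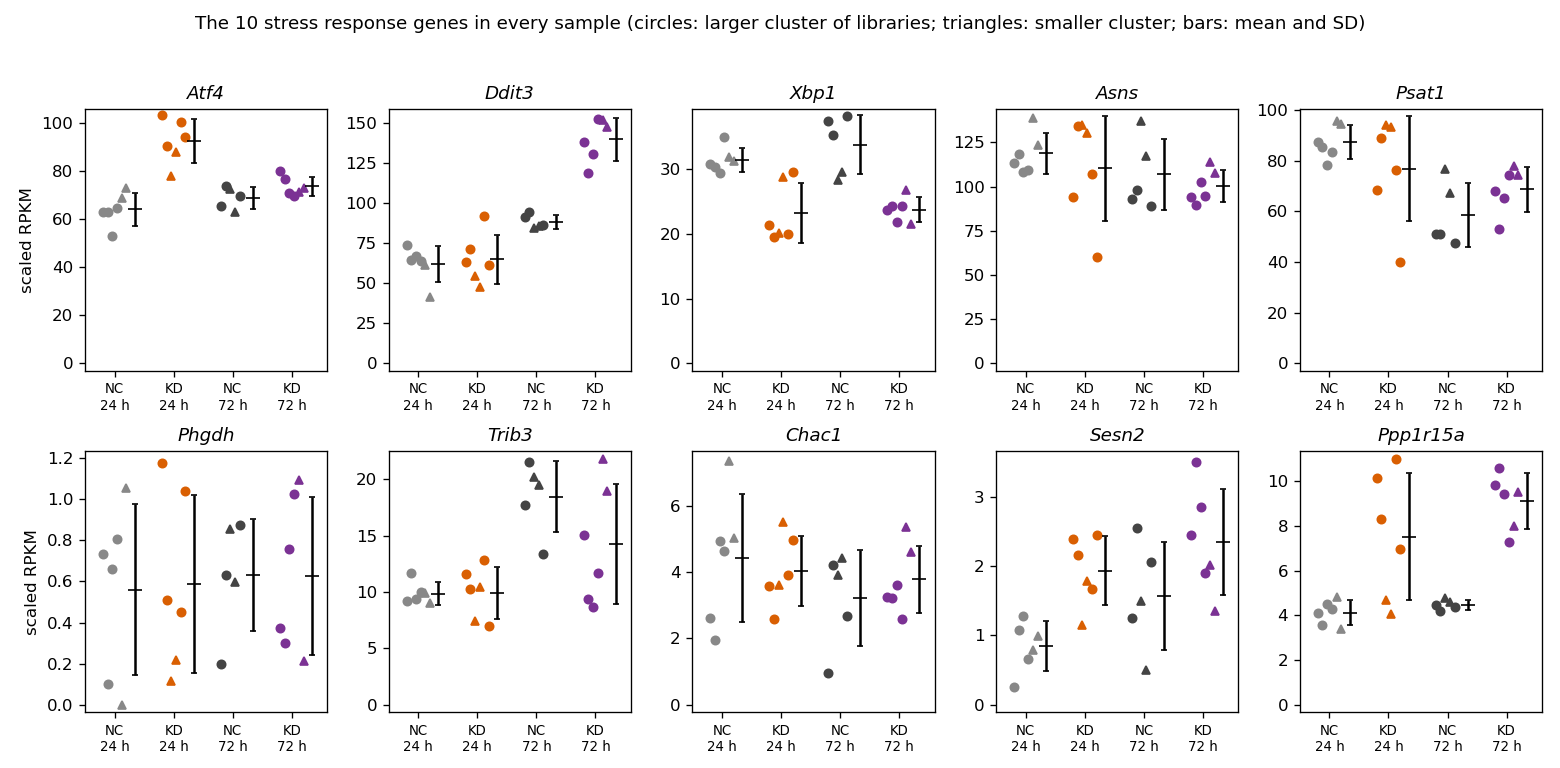
Scaled RPKM (vertical axis, from 0) of each of the 10 genes in every sample of the 4 groups, with the mean and SD beside each group. Circles and triangles mark the larger and the smaller cluster of libraries, and in Ppp1r15a the 2 triangles of KD 24 h, at 4.06 and 4.67, lie among the NC samples.

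Atf4 (NM_009716, GRCm38.p6 chr15:80255184-80257545) ranged from 77.7 to 103 scaled RPKM in KD 24 h, with a median of 92.2, and from 52.7 to 72.8 in NC 24 h, with a median of 63.6. Every KD sample lay above every NC sample. The log2 fold change was 0.52 ± 0.11 (SE; limma adjusted p = 0.0044), a fold of 1.43, and the gene was called in all 12 fits that left out a single library. It was 0.67 ± 0.12 (limma adjusted p = 0.0034) within the larger cluster and 0.22 ± 0.11 (adjusted p = 0.28) within the smaller one, where only 2 samples stand on each side. At 72 h the KD samples, 69.4 to 80.1 with a median of 72.0, overlapped the NC samples, which were 62.8, 65.5, 69.3, 72.5 and 73.6. The difference there was 0.09 ± 0.08 (limma adjusted p = 0.48, 95% interval -0.09 to 0.27), and 0.35 ± 0.10 (adjusted p = 0.016) without scaling, where it was called.

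Ddit3 (NM_007837, chr10:127290793-127296291) encodes CHOP, a factor that joins ATF4 in prolonged stress. At 24 h the KD samples, 47.5 to 92.0 with a median of 62.2, and the NC samples, 41.4 to 73.9 with a median of 64.1, lay over each other. The log2 fold change was 0.05 ± 0.17 (limma adjusted p = 0.87, 95% interval -0.31 to 0.40). By 72 h the KD samples had 119 to 153, with a median of 143, and the NC samples 84.3, 85.8, 86.2, 91.4 and 94.6. The groups did not overlap, and the log2 fold change of 0.65 ± 0.09 (limma adjusted p = 2.16e-04) was a fold of 1.57. Within the larger and the smaller cluster it was 0.57 ± 0.10 and 0.82 ± 0.12 (limma adjusted p = 0.0019 and 0.0030). All 12 fits without a single library called it.

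Xbp1 (NM_013842, chr11:5520641-5525993) encodes the ER stress factor whose mRNA IRE1 splices, and its entry does not separate spliced from unspliced mRNA. At 24 h the KD samples were 19.5 to 29.6, with a median of 20.9, and the NC samples 29.5 to 35.0, with a median of 31.1. Of the 6 KD samples 5 lay below every NC sample, and the log2 fold change was -0.47 ± 0.13 (limma adjusted p = 0.022). Within the larger and the smaller cluster it was -0.50 and -0.39 (adjusted p = 0.048 and 0.26). The call was lost without KD replicate 1, 2 or 5 or without NC replicate 4, at adjusted p = 0.055, 0.053, 0.062 and 0.051, and without scaling, at -0.39 ± 0.14 (adjusted p = 0.059). In the 72 h groups the KD samples, 21.6 to 26.8 with a median of 24.0, all lay below the NC samples, which were 28.4, 29.6, 35.4, 37.5 and 38.3. The log2 fold change was -0.51 ± 0.11 (limma adjusted p = 0.0058), -0.65 ± 0.11 within the larger cluster and -0.26 ± 0.18 within the smaller one, and without scaling -0.25 ± 0.12 (adjusted p = 0.12), where it was not called.

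**Figure D2:**
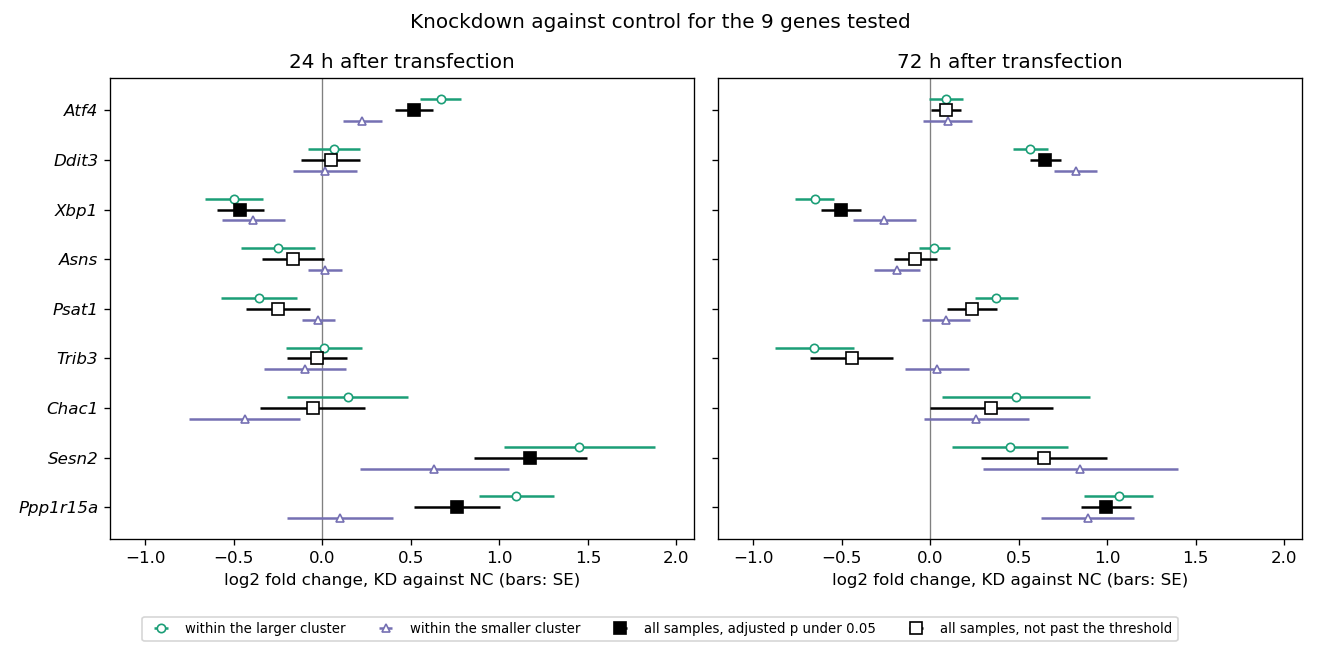
Log2 fold change of KD against NC (horizontal axis, bars are SE) for the 9 tested genes at 24 h and 72 h, in all samples (squares, filled where the adjusted p was under 0.05) and within the larger (circles) and the smaller (triangles) cluster of libraries. Ppp1r15a at 24 h is 1.09 in the larger and 0.10 in the smaller cluster, whereas Ddit3 at 72 h is 0.57 and 0.82.

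Ppp1r15a (NM_008654, chr7:45522917-45526268) encodes GADD34, which brings a phosphatase to eIF2α and so ends the response. At 24 h the KD samples were 4.06 to 11.0, with a median of 7.63, and the NC samples 3.39 to 4.85, with a median of 4.21. The 4 KD samples of the larger cluster, 6.97 to 11.0, lay above every NC sample, and the 2 of the smaller cluster, 4.06 and 4.67, lay within the NC range. The log2 fold change over all samples was 0.76 ± 0.24 (limma adjusted p = 0.037), with 1.09 ± 0.21 (adjusted p = 0.0054) in the larger and 0.10 ± 0.30 (adjusted p = 0.89) in the smaller cluster. Only 4 of the 12 fits without a single library kept the call: adjusted p was 0.055 to 0.078 without KD replicate 1, 2 or 5 or without NC replicate 1, 2, 3, 4 or 6. In the 72 h groups the KD samples, 7.29 to 10.6 with a median of 9.49, all lay above the NC samples, which were 4.22, 4.36, 4.45, 4.61 and 4.79. Its log2 fold change of 0.99 ± 0.14 (limma adjusted p = 3.1e-04), a fold of 1.99, was the largest among the members at that time, and all 12 such fits called it. Within the clusters it was 1.06 and 0.89 (adjusted p = 0.0025 and 0.062).

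Trib3 (NM_175093, chr2:152337425-152344060) encodes a pseudokinase that ATF4 and CHOP induce and that in turn dampens their activity. It was 6.97 to 12.8 in KD 24 h and 8.99 to 11.7 in NC 24 h, a log2 fold change of -0.03 ± 0.17 (limma adjusted p = 0.91). At 72 h the KD samples spread from 8.66 to 21.8, around NC samples of 13.4, 17.7, 19.5, 20.2 and 21.5. The smaller cluster gave the 2 highest KD samples, 19.0 and 21.8, and the larger cluster the other 4, up to 15.0. Trib3 at 72 h had a log2 fold change of -0.44 ± 0.24 (limma adjusted p = 0.19), with -0.66 ± 0.22 (adjusted p = 0.052) in the larger and 0.04 ± 0.18 (adjusted p = 0.92) in the smaller cluster.

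Sesn2 (NM_144907, chr4:132492804-132510456) encodes sestrin 2, a leucine sensor that restrains mTORC1, and had the largest increase among the members at 24 h with the entry used here. The KD samples were 1.15 to 2.45, with a median of 1.97, and the NC samples 0.258 to 1.28, with a median of 0.890, and 5 of the 6 KD samples lay above every NC sample. This was a log2 fold change of 1.17 ± 0.32 (limma adjusted p = 0.018), and all 12 fits without a single library called it, on a mean of only 17.5 reads per library. Within the larger cluster it was 1.45 (adjusted p = 0.031) and within the smaller one 0.63 (adjusted p = 0.43). An Ensembl entry of the gene with a higher mean level, 4.07 RPKM, gave 0.73 ± 0.26 (limma adjusted p = 0.057), below the 0.76 of Ppp1r15a. The call was also lost without replicate 1 or 5 of both groups (adjusted p = 0.057 and 0.0502). At 72 h the KD samples, 1.36 to 3.50, overlapped the NC samples, 0.505 to 2.55, and the log2 fold change was 0.64 ± 0.36 (limma adjusted p = 0.21). Chac1 (NM_026929, chr2:119351242-119354326), which encodes a glutathione-degrading enzyme, had a mean of 24.4 reads per library and was 2.59 to 5.51 in KD 24 h, 1.94 to 7.34 in NC 24 h, 2.59 to 5.37 in KD 72 h and 0.944 to 4.42 in NC 72 h. Its log2 fold changes were -0.06 ± 0.30 at 24 h and 0.35 ± 0.35 at 72 h (limma adjusted p = 0.91 and 0.51), with intervals of -0.69 to 0.58 and -0.40 to 1.10.

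The 3 amino acid enzymes did not pass the test at either time. Asns (NM_012055, chr6:7675165-7693209), asparagine synthetase and a textbook ATF4 target, had the highest mean level of the members over all libraries, though below Ddit3 in KD 72 h, at 60.1 to 135 in KD 24 h and 108 to 139 in NC 24 h. Its log2 fold change at 24 h was -0.17 ± 0.18 (limma adjusted p = 0.51) and 0.01 without KD replicate 6, the shallowest library, in which it stood at 60.1. At 72 h the KD samples were 89.5 to 114 and the NC samples 89.1, 93.2, 98.1, 117 and 137, with a log2 fold change of -0.08 ± 0.12 (adjusted p = 0.66) and 0.17 without scaling. In each of the 4 groups the smaller cluster had the higher mean of Asns, at 133 against 99.0 in KD 24 h, 131 against 113 in NC 24 h, 111 against 95.3 in KD 72 h and 127 against 93.5 in NC 72 h. The clusters were made from the same libraries over 5946 genes, so this is a description and no test.

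Psat1 (NM_177420, chr19:15905123-15925059), which makes phosphoserine on the route to serine, followed the same division between the clusters. It was 39.8 to 93.9 in KD 24 h and 78.4 to 95.7 in NC 24 h, with the lowest value again in KD replicate 6, and the log2 fold change was -0.25 ± 0.18 (limma adjusted p = 0.32). At 72 h the KD samples were 53.0 to 77.7, with a median of 71.0, and the NC samples 47.4, 50.9, 50.98, 67.1 and 76.8, the last pair from the smaller cluster. The log2 fold change was 0.24 ± 0.14 (limma adjusted p = 0.25) over all samples, 0.37 ± 0.12 (adjusted p = 0.043) within the larger cluster and 0.49 ± 0.16 (adjusted p = 0.029) without scaling. Phgdh (NM_016966, chr3:98313171-98339969), the enzyme that opens the serine route, had a mean of 4.19 reads per library and was not fitted. Its deposited RPKM averaged 0.609 ± 0.479 in KD and 0.533 ± 0.394 in NC at 24 h (SD, n = 6 and 6; two-sided exact permutation test, p = 0.766), and 0.690 ± 0.420 against 0.592 ± 0.259 at 72 h (n = 6 and 5; exact permutation test, p = 0.684). These values rest on 23 and 24 reads in all for KD and NC at 24 h.

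**Figure D3:**
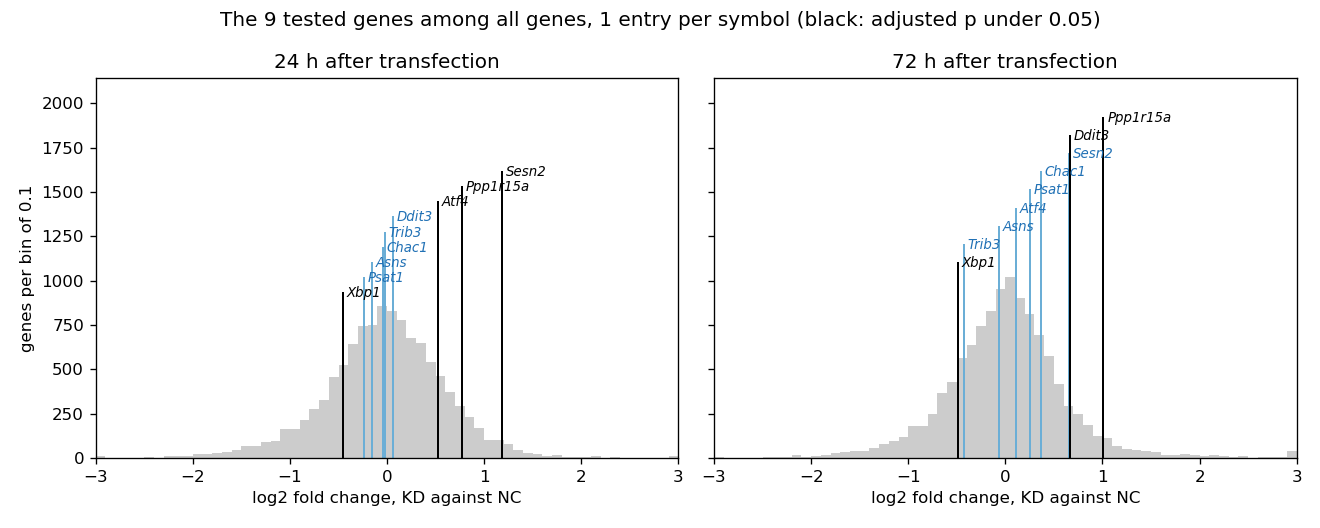
Distribution of the log2 fold change of KD against NC over all genes tested with 1 entry per symbol (grey bars, number of genes per bin of 0.1, with the end bins holding everything beyond), with the 9 tested members as vertical lines, black where the adjusted p was under 0.05. At 24 h the lines run from Xbp1 to Sesn2, which lies above 97.6% of genes, and at 72 h Ppp1r15a lies above 95.4%.

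Over time in the control cells, which differentiated further between 24 h and 72 h, 3 of the 9 members changed, 2 of them higher and 1 lower, where 9.15% of 52693 entries were called, 4.64% higher and 4.51% lower. Trib3 rose from 9.87 ± 0.984 to 18.5 ± 3.16 scaled RPKM (SD, n = 6 and 5), a log2 fold change of 0.88 ± 0.14 (limma adjusted p = 9.3e-04), and Ddit3 rose from 62.0 ± 11.0 to 88.5 ± 4.35 (0.53 ± 0.12, limma adjusted p = 0.014). Psat1 fell from 87.4 ± 6.60 to 58.6 ± 12.7 (-0.60 ± 0.12, limma adjusted p = 0.0065). For each of these 3 genes the NC samples of one time did not overlap those of the other, and all 12 fits without a single library kept the call. The difference in knockdown effect between the times was called for 0 of the 9 members in the limma interaction term, where 0.191% of 59266 entries were called, and 2 members had an unadjusted p under 0.05. With voom on the recovered reads 0 were called as well. The 2 were Atf4, with an interaction of -0.43 ± 0.13 (limma adjusted p = 0.16), and Ddit3, with 0.60 ± 0.20 (limma adjusted p = 0.21). The appearance of Atf4 at 24 h and of Ddit3 at 72 h is therefore not shown to be a difference between the times.

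Over the 23 samples and 12680 genes with 1 entry per symbol, the levels most like that of Atf4 by Pearson's r on the log2 scale were those of Gdf15 (0.90), Snrnp200 (0.90), Fubp1 (0.89), Slc3a2 (0.88) and Ercc3 (0.88). Gdf15 encodes a secreted stress hormone and Slc3a2 the heavy chain of several amino acid transporters. Of the members Ppp1r15a reached 0.56 and Sesn2 0.53, and Chac1, Ddit3, Psat1, Trib3 and Asns lay between 0.13 and -0.21. Xbp1 was at -0.55. These values describe the samples, which share 4 groups, so they include the differences between groups. For the deviations from the group means r with Atf4 was 0.54 for Gdf15, 0.62 for Snrnp200, 0.63 for Fubp1, 0.66 for Slc3a2 and 0.83 for Ercc3. It was 0.43 for Ppp1r15a and 0.31 for Sesn2. Xbp1 and Atf4 no longer ran against each other within the groups, with r = 0.08.

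**Figure D4:**
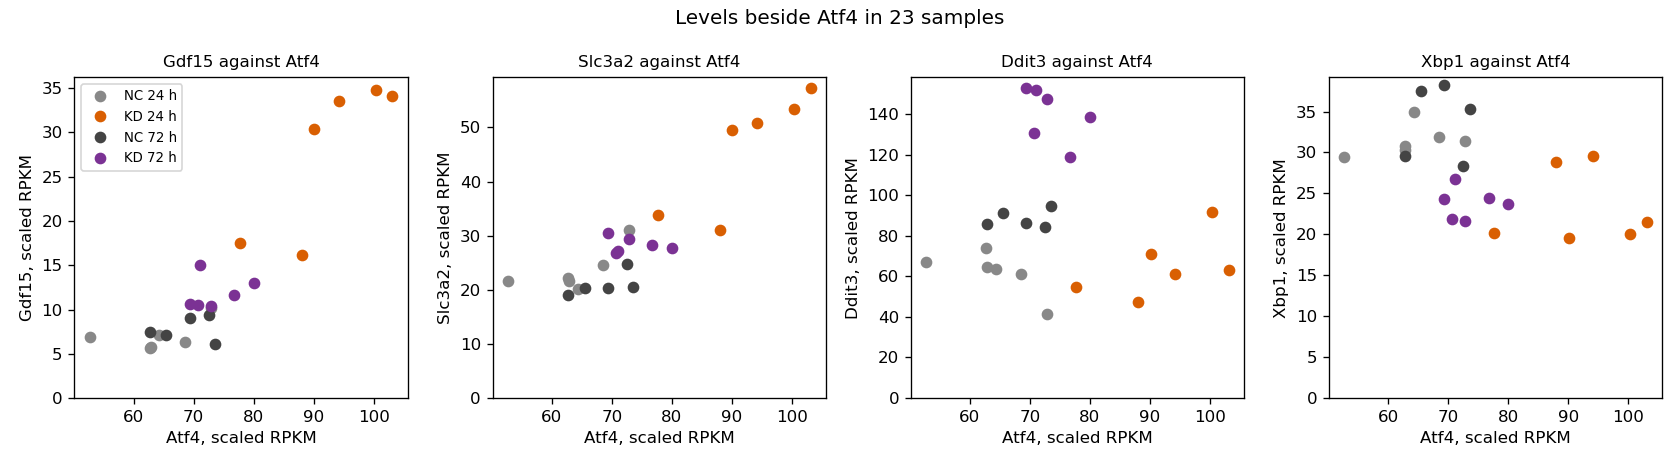
Scaled RPKM of Gdf15, Slc3a2, Ddit3 and Xbp1 (vertical axes, from 0) against that of Atf4 (horizontal axis, not from 0) in 23 samples coloured by group. Gdf15 and Slc3a2 are highest in the 4 KD 24 h samples with the highest Atf4, while Ddit3 is highest in KD 72 h, where Atf4 is 69.4 to 80.1.

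The other genes of the pathway were taken from a list of 65 symbols in 9 roles, of which 63 were in the table and 59 were tested at each time. At 24 h 16 of 59 were called, 5 higher and 11 lower, and at 72 h 18 of 59, again 5 higher and 13 lower, with median log2 fold changes of -0.20 and -0.07. The shares, 27.1% and 30.5%, stand beside 22.6% and 22.5% of all entries, and the count at 72 h was 9, 11 and 11 without KD replicate 1, 2 or 3. Without scaling 16 genes were called at 24 h and 12 at 72 h, and the latter were 10 higher and 2 lower. Of all entries 11740 of 52005 and 16255 of 54138 were called without scaling, the latter 13151 higher and 3104 lower. Within the smaller cluster 4 of 58 genes were called at 24 h and 7 of 61 at 72 h. Of all entries 1553 of 52998 and 5922 of 55823 were called there.

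Of the 7 transcription factors of the list 2 were called at 24 h, 1 in each direction, and 5 at 72 h, 2 higher and 3 lower. Their median log2 fold changes were 0.11 and -0.43. Without scaling 2 were higher and 0 lower at 72 h, where 13151 of 54138 entries were higher and 3104 lower. Among them Atf3, an early stress gene that ATF4 induces, stood at 2.32 to 5.57 scaled RPKM in KD 24 h and 0.635 to 1.67 in NC 24 h, without overlap. Its log2 fold change was 1.68 ± 0.28 at 24 h (limma adjusted p = 0.0014) and 0.91 ± 0.30 at 72 h (adjusted p = 0.041). Within the larger and the smaller cluster it was 1.98 and 1.10 at 24 h (limma adjusted p = 0.0023 and 0.23) and 1.31 and 0.23 at 72 h (adjusted p = 0.010 and 0.82), and 5 of 12 fits without a single library kept the call at 72 h. Nupr1, a stress-induced chromatin protein, was 899 to 1989 in KD 72 h and 304 to 548 in NC 72 h, a log2 fold change of 1.74 ± 0.22 (limma adjusted p = 1.15e-04), after 0.61 ± 0.21 at 24 h (adjusted p = 0.051). Atf6, which encodes the membrane-bound factor of another ER stress arm, was lower at both times, by -1.10 ± 0.29 and -0.80 ± 0.26 (limma adjusted p = 0.014 and 0.037), the call at 72 h being kept in 5 of 12 fits without a single library and lost without scaling (-0.56, adjusted p = 0.12). Within the larger and the smaller cluster Atf6 was -1.39 and -0.52 at 24 h (limma adjusted p = 0.013 and 0.42). At 72 h it was -0.61 and -1.12 there (adjusted p = 0.22 and 0.13). Of the 6 kinase, phosphatase and eIF2α subunit genes 0 were called at either time in limma, beside 22.6% and 22.5% of all entries. The count was not tested against that share. At each time 1 of them had an unadjusted limma p under 0.05 (Eif2ak1 at 24 h and Ppp1r15b at 72 h). With voom on recovered reads Ppp1r15b, the constitutive phosphatase subunit, was called at 72 h (-0.45, adjusted p = 0.032). The kinase genes Eif2ak3 (PERK) and Eif2ak4 (GCN2) stood at mean levels of 0.685 and 0.515 RPKM, with 24 h changes of 0.16 ± 0.36 and -0.52 ± 0.34 (limma adjusted p = 0.78 and 0.28) and 72 h changes of 0.54 ± 0.26 and 0.02 ± 0.30 (adjusted p = 0.15 and 0.97).

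Of the amino acid transporters 3 of 8 were called at 24 h, 2 higher and 1 lower, and 2 of 7 at 72 h, 1 in each direction, beside 22.6% and 22.5% of all entries. Slc3a2 was 31.1 to 57.4 in KD 24 h and 20.1 to 31.0 in NC 24 h, and rose by a log2 fold change of 0.93 ± 0.17 (limma adjusted p = 0.0022) at 24 h and 0.43 ± 0.10 (adjusted p = 0.0074) at 72 h. Within the smaller cluster its change at 24 h was 0.23 (limma adjusted p = 0.43). Slc38a2, a transporter of neutral amino acids, was higher at 24 h (0.46 ± 0.16, limma adjusted p = 0.049), a call kept in only 2 of 12 fits without a single library and lost without scaling (adjusted p = 0.051) and within the smaller cluster (0.13, adjusted p = 0.73). Slc1a5, the glutamine transporter ASCT2, was lower at both times (-0.84 ± 0.14 and -0.77 ± 0.13, limma adjusted p = 0.0015 and 8.9e-04). Within the smaller cluster it was -0.77 and -0.34 (limma adjusted p = 0.027 and 0.17). Of the one-carbon enzymes Mthfd1l, mitochondrial formate synthesis, was lower at both times (-1.62 ± 0.25 and -1.41 ± 0.31, limma adjusted p = 7.68e-04 and 0.0047), at 0.538 to 1.19 in KD 24 h against 2.02 to 3.85 in NC 24 h. Within the larger cluster it was -1.96 and -1.59 (limma adjusted p = 0.0018 and 0.016). Within the smaller one it was -0.92 and -1.115 (adjusted p = 0.20 and 0.14). Aldh1l2, another mitochondrial folate enzyme, and Cth, which makes cysteine, were lower at 24 h (-0.73 ± 0.21 and -1.04 ± 0.27, limma adjusted p = 0.024 and 0.014) and not called at 72 h (-0.47 ± 0.24 and -0.46 ± 0.27, adjusted p = 0.17 and 0.24). Within the smaller cluster they were -0.37 and -0.30 at 24 h (limma adjusted p = 0.56 and 0.44), against -0.90 and -1.41 within the larger one, and 8 of 12 fits without a single library kept the call of Aldh1l2.

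**Figure D5:**
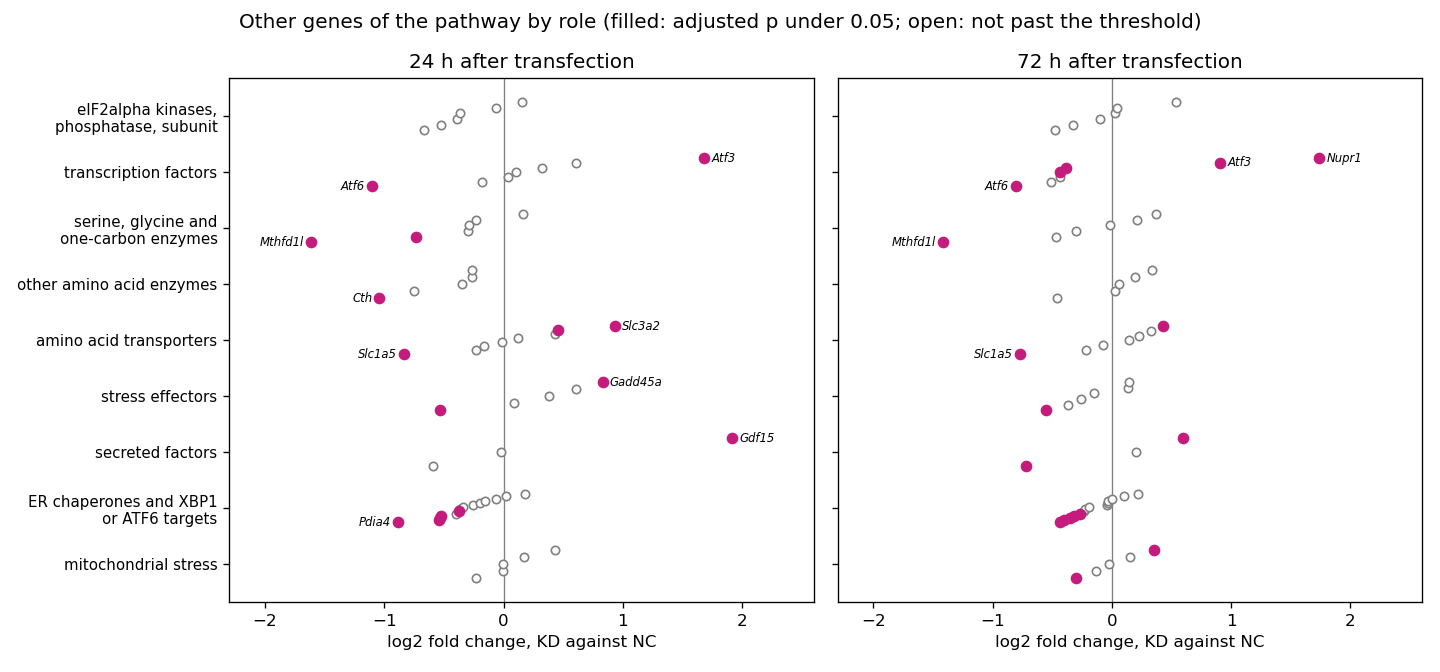
Log2 fold change of KD against NC (horizontal axis) for the genes of the pathway list by role, at 24 h and 72 h, filled where the adjusted p was under 0.05. The secreted factor Gdf15 (1.92) and Atf3 (1.68) lead at 24 h and Nupr1 (1.74) at 72 h, and among the ER chaperones the called genes are all lower on this scale, 5 of 14 at each time, beside 12.1% and 12.3% of all entries.

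The secreted stress factors did not move as 1 group. Gdf15 was 16.1 to 34.8 in KD 24 h and 5.69 to 10.1 in NC 24 h, without overlap, and 10.4 to 15.1 against 6.09 to 9.33 at 72 h. Its log2 fold change was 1.92 ± 0.22 at 24 h and 0.59 ± 0.16 at 72 h (limma adjusted p = 1.28e-04 and 0.014), and the interaction of -1.33 ± 0.28 passed the threshold narrowly (limma adjusted p = 0.048). At 24 h and 72 h its change was 2.36 and 0.63 within the larger cluster (limma adjusted p = 4.19e-05 and 0.029). Within the smaller one it was 1.05 and 0.59 (adjusted p = 0.058 and 0.19). In KD 24 h the 4 samples of the larger cluster had 30.4 to 34.8 and the 2 of the smaller cluster 16.1 and 17.5. Fgf21 was not called at either time over all samples (-0.59 ± 0.21 and 0.20 ± 0.18, limma adjusted p = 0.060 and 0.46). Within the larger and the smaller cluster Fgf21 was -0.87 and -0.03 at 24 h (limma adjusted p = 0.026 and 0.94). At 72 h it was -0.09 and 0.74 there (limma adjusted p = 0.78 and 0.021). Vegfa was lower at 72 h over all samples (-0.72 ± 0.18, limma adjusted p = 0.011), and without scaling it was -0.46 (adjusted p = 0.082). It was -1.09 (limma adjusted p = 5.66e-04) within the larger cluster and -0.10 (adjusted p = 0.78) within the smaller one. Of the stress effectors Gadd45a was higher at 24 h (0.83 ± 0.23, limma adjusted p = 0.021), with 1.07 and 0.36 within the larger and the smaller cluster (adjusted p = 0.0096 and 0.19). At 72 h it was 0.69 within the larger cluster and -0.96 within the smaller one (limma adjusted p = 0.0026 and 0.029). Eif4ebp1, a translation repressor, was lower at both times (-0.53 ± 0.10 and -0.55 ± 0.09, limma adjusted p = 0.0033 and 7.88e-04), with adjusted p = 0.060 at 72 h without scaling. Within the larger cluster it was -0.70 and -0.68 (limma adjusted p = 0.0014 and 4.5e-05). Within the smaller one it was -0.20 and -0.28 (adjusted p = 0.13 and 0.15).

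The ER chaperones and their cofactors, targets of XBP1 and ATF6, were lower where they were called over all samples. At 24 h 5 of 14 were lower and 0 higher with limma, where 12.1% of all entries were lower, and the same counts held without scaling and with median-of-ratios scaling. Hspa5, the chaperone BiP, was 101 to 120 in KD 24 h and 131 to 139 in NC 24 h, without overlap, a log2 fold change of -0.37 ± 0.08 (limma adjusted p = 0.0062). Pdia4 and Pdia6, disulfide isomerases, were lower by -0.89 ± 0.23 and -0.54 ± 0.09, and the chaperone Hsp90b1 by -0.53 ± 0.10 (limma adjusted p = 0.013, 0.0015 and 0.0029), and these 3 were also called within both clusters. At 72 h 5 of 14 were lower, where 12.3% of all entries were, among them Manf (-0.44 ± 0.11, limma adjusted p = 0.0095), Herpud1 (-0.41 ± 0.13, adjusted p = 0.041) and Pdia4 (-0.35 ± 0.10, adjusted p = 0.028), but without scaling 0 were lower and 1 was higher, with 9 of 14 fold changes above 0. Of these 3, Herpud1 kept its call in 4 and Pdia4 in 7 of 12 fits without a single library. Of all 54138 entries 13151 were higher and 3104 lower at 72 h without scaling. Within the larger cluster 2 were lower and 1 higher at 72 h, the latter being Hyou1, an ER chaperone singled out after its values were seen, at 0.64 (limma adjusted p = 0.037) there and -1.36 (adjusted p = 0.020) within the smaller cluster. Hspa5 was then -0.23 ± 0.10 (limma adjusted p = 0.13), and 0.03 without scaling. Of the mitochondrial stress genes Lonp1 was higher (0.35 ± 0.12, limma adjusted p = 0.043) and Hspe1 lower (-0.30 ± 0.09, adjusted p = 0.029) at 72 h. Only 4 and 7 of 12 fits without a single library kept these calls, and Hspe1 was -0.05 (limma adjusted p = 0.77) without scaling.

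The levels of cell type markers differed between KD and NC beside these results. The sum of 3 brite markers was 342 to 735 RPKM in KD 72 h and 1096 to 1821 in NC 72 h, and at 24 h 235 to 449 against 343 to 706. The sum of 5 preadipocyte and stromal markers was 68.5 to 91.2 in KD 72 h and 49.4 to 72.9 in NC 72 h, and 34.7 to 57.5 against 39.5 to 44.6 at 24 h. At 72 h the means of Thy1 (42.0 against 36.8), Pdgfrb (22.1 against 12.3) and Cd34 (2.01 against 0.390) were higher in KD in deposited RPKM. Those of Pdgfra (9.60 against 10.3) and Dlk1 (0.371 against 0.405) were lower. The sum of 6 adipocyte markers was 28206 to 41659 in KD 72 h, with a median of 29674, and 34504 to 44290 in NC 72 h, with a median of 41167, and at 24 h 36209 to 54541 against 47709 to 51175. Fabp4 made up most of this sum, with a mean of 28400 against 35280 at 72 h. Adipoq (1169 against 1828), Lpl (1043 against 1191) and Plin1 (13.8 against 15.4) were also lower in KD 72 h. Cidec (2365 against 1849) and Pparg (107 against 102) were higher there. The part of such shifts in the levels of the stress genes was not tested. The study calls its transcriptome samples biological replicates, but neither it nor the labels say whether the libraries of a group came from separate cultures or animals, and if they did not, the p-values measure only technical spread.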

How the data were processed

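The deposited table gives RPKM, which the authors computed from 3′ end tags (bulk RNA barcoding and sequencing) aligned to the NCBI Reference Sequence Database in the Genomatix suite. The version, genome build, filters and use of strand are not given in the sources used here, so overlapping or antisense genes can share reads. Dividing 3′ tags by transcript length lowers long transcripts, and entries of 1 gene share reads. 0 columns were left out. The study tested read counts at each time with a count model, and the deposited RPKM were tested here on a log scale.

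Members, lists and tests were chosen with earlier results of these data known. Named were all 10 members, up to 3 called genes with the largest change per role and time, and Eif2ak3, Eif2ak4, Hspa5, Atf3, Fgf21 and Gdf15. The values written with a decimal comma were read as RPKM. Reads were recovered from the steps between low values (77.6% to 95.8% whole per library within 0.05 of a read), and 91.9% of 24044 Ensembl lengths came within 1% of GENCODE M21. Depth covers counting error only.

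Entries were fitted where at least n samples (n of the smaller group) reached what 10 reads are worth in a library of median depth, and where all samples together held 15 reads. Where no length was recovered, the median length of 2054 bases stood in for the filter and for voom. This held for Atf4, Asns and Psat1 and for 4936 entries tested at 24 h, so their reads are approximate. RPKM were scaled by a trimmed mean of log ratios (30% and 5% trimmed). limma 3.58.1 (R 4.3.3; lmFit, eBayes with trend) was run on log2(scaled RPKM + 0.1), which understates changes of low genes. All adjusted p-values are from limma after Benjamini-Hochberg correction over all entries, two-sided, called under 0.05. Printed levels use 1 scaling over the 23 samples, except those of Ctcflos, Phgdh, the cell type markers and mean levels over all libraries, which are deposited RPKM. Errors of fold changes are SE, and intervals are 95%. Phgdh was compared by an exact permutation test on the deposited values (scipy 1.17.1). The fit was tested on simulated data. Same-numbered samples did not deviate together (correlation -0.187 to 0.163 at 24 h and -0.126 to 0.121 at 72 h), so numbers were not used as pairs. Alternatives were other pseudocounts, no filter, other scalings, 1 entry per symbol, a block, 1 fit of all groups, the clusters, voom and left-out libraries.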

Additional observations from a re-analysis of the deposited data

Results flagged for a closer look

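Of 136 groups of samples, 6 held a sample far from the others by Dixon's ratio at the 95% level, where chance gives about 1 in 20, or 6.8. No group of a member was among them. Eif4ebp1 stood at 881.915 scaled RPKM in NC 24 h replicate 2, against 751 to 791 in the others. Gdf15 stood at 10.129 in NC 24 h replicate 6, against 5.69 to 7.18. Hspa5 stood at 119.8 in KD 24 h replicate 6, against 101.08 to 104. Hspe1 stood at 387.105 in NC 72 h replicate 6, against 284 to 311. Lonp1 stood at 32.195 in NC 24 h replicate 3, against 14.9 to 21.4. Slc3a2 stood at 24.723 in NC 72 h replicate 4, against 19.1 to 20.5.

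The interaction of knockdown and time for Gdf15, -1.329 on the log2 scale, passed the threshold narrowly (limma adjusted p = 0.048), the effect being larger at 24 h than at 72 h. The effects at 24 h and 72 h were 2.36 and 0.63 within the larger cluster and 1.05 and 0.59 within the smaller one.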

How the results depend on the processing

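The members called at 24 h numbered 4, and 2 without a filter on low values (Atf4 and Xbp1), 0 within the smaller cluster, 1 to 4 without each replicate number and 2 to 4 without each single library, with 2 (Atf4 and Sesn2) without KD replicate 1, 2 or 5 or NC replicate 4. At 72 h they numbered 3 under every left-out replicate or library and 1 (Ddit3) within the smaller cluster. In the control cells over time they numbered 3 under every left-out replicate or library and 1 (Trib3) within the smaller cluster. Interactions called numbered 0 under every setting run. Genes of the pathway list called at 24 h numbered 16, with 4 within the smaller cluster, 10 to 19 without each replicate number and 14 to 22 without each library. At 72 h they numbered 18, with 8 without the filter, 11 in the fit of all 4 groups, 7 within the smaller cluster, 8 to 13 without each replicate number and 9 to 18 without each library. With replicate numbers as a block, 3 members remained called at 24 h (Ppp1r15a at limma adjusted p = 0.060) and 8715 entries in place of 11765, whereas same-numbered samples share only a number. Calls over all entries at 24 h ran from 6231 (without replicate 2) to 15284 (all groups in 1 fit), and were 2613 with 1 entry per symbol and 1553 within the smaller cluster. At 72 h they ran from 5922 (smaller cluster) to 16255 (no scaling), and were 2807 with 1 entry per symbol. Interactions ran from 5 (without replicate 1) to 1854 (smaller cluster), against 113. In the control cells over time they ran from 1071 (1 entry per symbol) to 6538 (near-identical libraries kept apart), against 4822. The single-library runs and the entry with the highest mean per gene were added after seeing the data. The causes of these moves were not tested.

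Signs turned only for values that were not called over all samples. Without scaling, log2 fold changes at 24 h turned to 0.0386 for Trib3, 0.0138 for Chac1 and 0.0478 for Vegfa, at 72 h to 0.172 for Asns and 0.0311 for Hspa5, and for the interaction to 0.14 for Xbp1. Within the larger cluster they turned to 0.0072 (Trib3), 0.142 (Chac1) and 0.147 (Vegfa) at 24 h, 0.0221 (Asns) and -0.0852 (Fgf21) at 72 h, and -0.0372 (Ppp1r15a, interaction). Within the smaller cluster they turned to 0.0161 (Asns) and -0.71 (Eif2ak3) at 24 h, 0.0386 (Trib3), -0.41 (Eif2ak4) and -0.96 (Gadd45a) at 72 h, 0.14 (Xbp1), -0.20 (Asns), 0.15 (Trib3) and 0.21 (Sesn2) for the interaction, and -0.077 (Atf4) and -0.14 (Xbp1) in the control cells over time. With voom on recovered reads Trib3 at 24 h was 0.001. With replicates or libraries left out, values at 24 h spanned -0.0564 to 0.15 for Ddit3, -0.247 to 0.0179 for Asns, -0.0956 to 0.0725 for Trib3, -0.26 to 0.13 for Chac1, -0.18 to 0.40 for Eif2ak3 and -0.39 to 0.23 for Vegfa. At 72 h they spanned -0.164 to 0.0262 for Asns, -0.0334 to 0.553 for Chac1, -0.16 to 0.25 for Eif2ak4 and -0.12 to 0.43 for Gadd45a, and for the interaction -0.17 to 0.11 for Xbp1 and -0.17 to 0.28 for Asns. Depth limits Phgdh, Sesn2 and Chac1 most.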
